A study of Mus musculus with 8 samples.

Results

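The 10 genes described here encode acute-phase proteins of the liver: the serum amyloid A family (*Saa1*, *Saa2*, *Saa3* and *Saa4*), the orosomucoid family (*Orm1*, *Orm2* and *Orm3*), haptoglobin (*Hp*), lipocalin 2 (*Lcn2*) and the heavy chain 4 of inter-alpha-trypsin inhibitor (*Itih4*). They were taken by symbol from a count table of 16540 genes, and all 10 passed the filter on low counts that left 12307 genes for testing. Liver RNA was sequenced from male *Apoe*-/- mice, which lack apolipoprotein E and are prone to high plasma cholesterol and atherosclerosis. All mice received a high cholesterol diet, named a Western diet in the deposited description, for 7 weeks before treatment began. In the ISOGK group (n = 4), isoginkgetin, a plant biflavonoid, was injected intraperitoneally at 20 mg/kg/day for 8 weeks. The other group (n = 4) received vehicle, whose columns carry the name of the solvent DMSO. Each library came from 1 mouse, the age of the mice is not given in the sources used here, and the knockout is carried by both groups.

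The acute-phase response is a change in the proteins that hepatocytes secrete when tissue is injured or infected. Cytokines, chiefly interleukin-6 acting through STAT3 and interleukin-1 acting through NF-kB and C/EBP factors, raise the transcription of positive acute-phase genes, while negative acute-phase genes such as that of albumin fall. In mice, serum amyloid A is among the most strongly inducible of these proteins and travels in plasma on high-density lipoprotein.

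ISOGK mouse 4 stood apart from the other 7 mice in these genes. It had the highest level of 9 of the 10 genes, with *Saa4* the exception, against 23.3% of all tested genes for which it was the highest library. In 6 of the 10 (*Saa1*, *Saa2*, *Orm1*, *Orm2*, *Hp* and *Lcn2*) it exceeded every other library by more than 2 times, against 0.228% (28) of all tested genes. No gene of the 10 passed the test between ISOGK and vehicle (adjusted p under 0.05, edgeR quasi-likelihood test with Benjamini-Hochberg adjustment over all tested genes), against 7.55% of all tested genes called. At an unadjusted p under 0.05 there was 1 of the 10 (*Saa4*), against 24.2% of all tested genes. DESeq2 called 1 of the 10 (*Saa4*), against 1435 of the 12307 tested genes. The levels of 1 of the 10 did not overlap between groups, again *Saa4*, against 15.3% of all tested genes, and none of the 10 lay higher without overlap, against 7.92%. With a log2 fold change beyond 1 in size required as well, 0 of the 10 and 1.63% of all tested genes were called. The comparisons of ISOGK mouse 4 with the other libraries, and the limit of 2 times, were chosen after the values were seen, so the fold changes of the 10 genes are given with and without that mouse. The 28 genes compare with 1 to 21 genes that exceeded every other library by more than 2 times in each of the other 7 mice.

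The vehicle libraries held 19605286 to 24461854 counted reads and the ISOGK libraries 17457106 to 21626399. Levels are given as CPM, counts per 1000000 reads after scaling by edgeR's TMM factors, which lay between 1.02 and 1.09 in the vehicle group and between 0.883 (ISOGK mouse 4) and 1.01 in the ISOGK group. The 10 genes took 0.782% to 0.868% of the counts in vehicle mice, 0.632% to 0.804% in ISOGK mice 1 to 3, and 2.08% in ISOGK mouse 4. All 8 hepatocyte markers were present, and none of them was called different, against 7.55% of all tested genes. Their summed level was 142892 to 153465 CPM in vehicle mice and 131715 to 163636 CPM in ISOGK mice. *Alb* made up 79.8% to 86.3% of that sum, and of the other 7 markers, 3 (*Cps1*, *Apob* and *Cyp2e1*) were lowest in ISOGK mouse 4. The 10 skeletal muscle markers summed to 82.3 CPM in vehicle mouse 4 and to at most 0.623 CPM elsewhere, and the adipocyte marker in the table, *Cfd*, did not exceed 0.580 CPM. In bulk tissue, fewer cells of a type and less RNA per cell cannot be told apart.

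**Figure D1:**
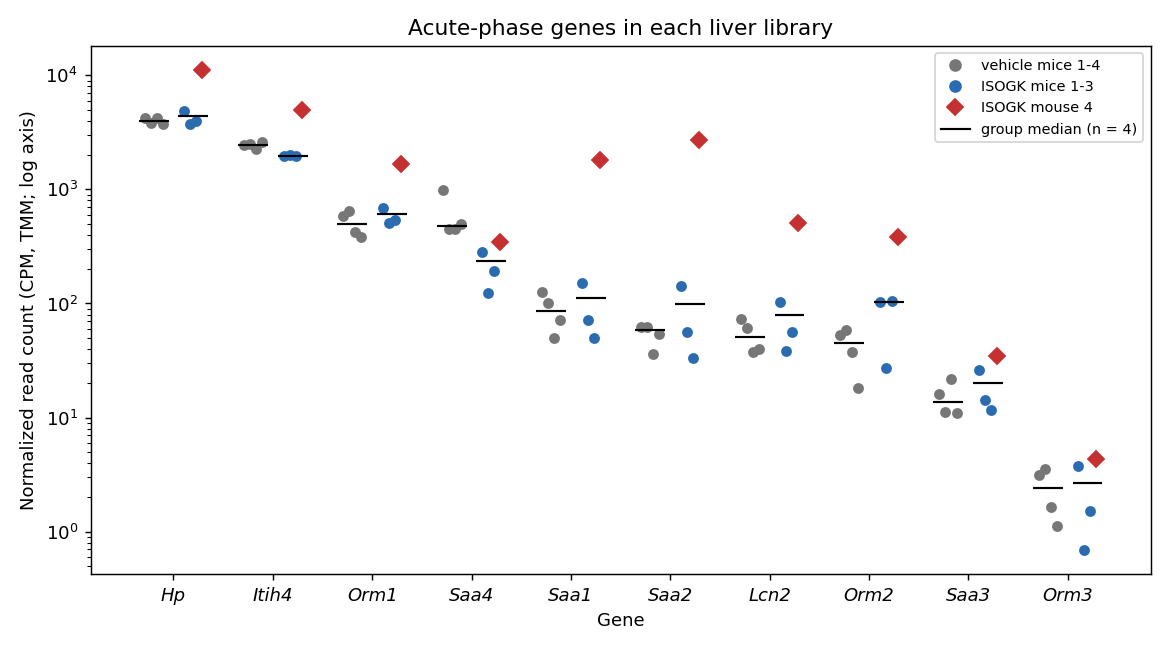
Normalized read count (CPM on a log axis) of the 10 genes, ordered by their level per kilobase in vehicle mice; each point is 1 library and black lines are group medians (n = 4). The diamond of ISOGK mouse 4 is the highest point for every gene except *Saa4*, from 4.30 CPM for *Orm3* to 11163 CPM for *Hp*.

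Levels of different genes were compared per kilobase of the longest protein-coding transcript in GENCODE M21, so that a gene's rank depends on that choice of transcript. In vehicle mice *Hp* was the highest at 2976 ± 185 CPM per kilobase (SD, n = 4), followed by *Itih4* at 697 ± 41.6 and *Orm1* at 659 ± 165, and the levels of *Itih4* and *Orm1* overlapped between mice. *Saa4* followed at 284 ± 123, then *Saa1* at 143 ± 54.2 and *Saa2* at 82.3 ± 19.1 CPM per kilobase, which overlapped between mice, as did *Saa2* and *Lcn2*. *Lcn2* (57.7 ± 18.5) and *Orm2* (53.8 ± 23.3) did not differ beyond their spread, and *Saa3* (6.84 ± 2.37) and *Orm3* (3.05 ± 1.5) were the lowest. In ISOGK mouse 4 the order was different, with *Hp* at 8299, *Saa2* at 4191, *Saa1* at 2969 and *Orm1* at 2162 CPM per kilobase, all above *Itih4* at 1406.

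The serum amyloid A genes lie together on mouse chromosome 7 within 42.3 kb (GRCm38, chr7:46711998-46754313) in the order *Saa3*, *Saa4*, *Saa1*, *Saa2*. *Saa1* and *Saa2* encode the inducible plasma forms, *Saa3* a form made by many tissues, and *Saa4* a form known as constitutive. *Saa1* (chr7:46740497-46742980, minus strand) had 125, 101, 50.2 and 71.3 CPM in vehicle mice 1 to 4, and 152, 71.1, 50.2 and 1808 CPM in ISOGK mice 1 to 4. *Saa2* (chr7:46751790-46754313, plus strand) had 62.5, 61.9, 35.9 and 54.4 CPM in vehicle mice and 142, 56.5, 33.5 and 2733 CPM in ISOGK mice. For both genes ISOGK mice 2 and 3 lay within or just below the vehicle range, ISOGK mouse 1 lay above it, and the groups overlapped.

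ISOGK mouse 4 had 11.9 times the next highest library for *Saa1* and 19.2 times for *Saa2*. The log2 fold change (ISOGK over vehicle) of *Saa1* was 2.58 ± 1.30 (SE, adjusted p = 0.288), and that of *Saa2* was 3.79 ± 1.59 (adjusted p = 0.210). Without ISOGK mouse 4 these became 0.07 ± 0.48 (adjusted p = 0.956) and 0.53 ± 0.51 (adjusted p = 0.625). The fold changes of both genes therefore rested on 1 library. DESeq2 gave no p-value for either gene, because it marked a count in them as an outlier. Summed, *Saa1* and *Saa2* had 83.7 to 294 CPM in the other 7 mice and 4541 CPM in ISOGK mouse 4, which is 32.3 times the vehicle mean. *Saa2* made up 33.3% to 48.3% of that sum in the 7 mice and 60.2% in ISOGK mouse 4.

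The promoters of *Saa1* and *Saa2* are shown because these genes had the largest excess in ISOGK mouse 4, and that of *Saa4* because its levels were not high in that mouse. The letters are the bases from 250 to 45 before the RefSeq start (GRCm38.p6), 5′ to 3′ on the strand of the gene, and capitals mark matches to TTGCNNAA, the C/EBP motif searched on both strands. They lie at chr7:46743025-46743230 (minus strand), chr7:46751583-46751788 (plus strand) and chr7:46732648-46732853 (minus strand).
*Saa1*: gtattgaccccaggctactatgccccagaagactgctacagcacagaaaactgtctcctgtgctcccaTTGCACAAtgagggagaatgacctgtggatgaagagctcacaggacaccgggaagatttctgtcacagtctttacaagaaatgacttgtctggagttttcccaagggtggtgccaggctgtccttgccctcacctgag
*Saa2*: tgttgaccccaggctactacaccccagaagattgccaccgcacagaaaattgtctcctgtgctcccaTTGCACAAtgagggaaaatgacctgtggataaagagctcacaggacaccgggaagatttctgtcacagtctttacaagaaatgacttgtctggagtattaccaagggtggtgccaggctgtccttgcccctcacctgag
*Saa4*: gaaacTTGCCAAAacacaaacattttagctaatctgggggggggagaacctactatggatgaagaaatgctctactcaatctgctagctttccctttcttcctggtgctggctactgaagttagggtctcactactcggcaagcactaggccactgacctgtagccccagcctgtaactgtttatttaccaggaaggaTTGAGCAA
Over the 250 bases before the start, the RefSeq promoters of *Saa1* and *Saa2* were 94.8% identical. Their C/EBP match, with the same letters, began at positions -182 and -183, counted from the base just before the start as -1. *Saa4* shared 49.5% with *Saa1* and held 2 matches, of other letters. The motif was found in the 250 bases before the start in 7 of the 8 genes of the 10 that had a RefSeq entry, against 9.56% of 32851 promoters. The 7 are not independent of each other, since the promoters of *Saa1* and *Saa2* are near copies and those of *Orm2* and *Orm3* are 85.9% identical. A STAT motif (TTCNNNGAA, both strands) was found in *Itih4* alone of the 8, against 7.02% of all promoters, and the NF-kB consensus in none of the 8, against 7.25%. A match is a description of letters and not a bound site.

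*Saa4* (chr7:46727998-46732603, minus strand) had 979.5, 447, 454 and 498 CPM in vehicle mice 1 to 4 and 281, 125, 192 and 348 CPM in ISOGK mice 1 to 4. Every ISOGK mouse was below every vehicle mouse, a separation downward that 7.36% of all tested genes had, and vehicle mouse 1 lay well above the rest of its group. The log2 fold change was -1.33 ± 0.38 (SE, 95% interval -2.22 to -0.45), or 2.52 times lower with ISOGK. The adjusted p was 0.0788, which misses the threshold, and the two-sided exact permutation test gave p = 0.0286, the smallest that 4 mice against 4 allow. The adjusted p of *Saa4* ranged from 0.0223 to 0.143 over the 16 alternative settings, and it passed the threshold in 4 of them, including DESeq2 (adjusted p = 0.0228). Without vehicle mouse 1 the log2 fold change was -0.98 (adjusted p = 0.126), and without ISOGK mouse 4 it was -1.58 (adjusted p = 0.0872).

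*Saa3* (chr7:46711998-46715700, minus strand), the serum amyloid A gene known from macrophages and fat as well as liver, was low in all libraries. It had 16.2, 11.2, 22.0 and 10.9 CPM in vehicle mice and 26.0, 14.1, 11.6 and 34.5 CPM in ISOGK mice. The groups overlapped, and its log2 fold change was 0.52 ± 0.39 (SE, adjusted p = 0.465), or 0.20 ± 0.35 (adjusted p = 0.804) without ISOGK mouse 4. The 11 macrophage markers summed to 1308 to 1706 CPM in vehicle mice and to 1086 to 1371 CPM in ISOGK mice (1113 CPM in ISOGK mouse 4, two-sided exact permutation p = 0.0571). Among these 11 markers, 1 (*Cd68*) was called lower, against 3.44% of all tested genes. The part of the macrophage markers in the level of *Saa3* was not tested.

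Of 50-base windows of the *Saa1* transcript, 9.11% occur also in *Saa2*, and none occur in *Saa3* or *Saa4*. Between *Orm1* and *Orm2* the share is 20.4%, with 2.20% to 3.59% for the pairs with *Orm3*. Reads from those windows could have been assigned to either copy, so the split of counts within each of these families is uncertain, whereas the family sums are less affected.

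The orosomucoid genes lie within 21.3 kb on chromosome 4 (GRCm38, chr4:63344560-63365878) in the order *Orm1*, *Orm3*, *Orm2*, and encode alpha-1-acid glycoproteins, plasma carriers of basic and lipophilic compounds. *Orm1* (chr4:63344560-63348163, plus strand) had 582, 653, 423 and 385 CPM in vehicle mice and 684, 510, 534 and 1675 CPM in ISOGK mice. *Orm2* (chr4:63362449-63365878, plus strand) had 53.1, 58.1, 37.7 and 18.0 CPM in vehicle mice and 103, 27.1, 104 and 384 CPM in ISOGK mice. For *Orm2*, 3 ISOGK mice lay above all vehicle mice and ISOGK mouse 2 lay within the vehicle range. *Orm3* (chr4:63356162-63359511, plus strand) had 3.16, 3.52, 1.64 and 1.12 CPM in vehicle mice and 3.78, 0.686, 1.53 and 4.30 CPM in ISOGK mice. It was the lowest of the 10, with 13 to 89 counts per library, and the groups overlapped.

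ISOGK mouse 4 had 2.45 times the next highest library for *Orm1*, 3.68 times for *Orm2* and 1.14 times for *Orm3*. The log2 fold change of *Orm1* was 0.74 ± 0.42 (SE, adjusted p = 0.331) and fell to 0.17 ± 0.19 without ISOGK mouse 4 (adjusted p = 0.662). That of *Orm2* was 1.89 ± 0.83 (adjusted p = 0.227) with all mice and 0.90 ± 0.60 (adjusted p = 0.466) without ISOGK mouse 4. *Orm2* had the largest fold change above 0 of the 10 genes among the remaining 7 mice, and it did not pass the test. *Orm3* had a log2 fold change of 0.13 ± 0.55 (adjusted p = 0.911), whose sign changed in 6 of 16 alternative settings, among them scaling by library size alone (-0.0090) and the fit without ISOGK mouse 4 (-0.22 ± 0.59, adjusted p = 0.875). The summed level of the family was 404 to 790 CPM in the other 7 mice and 2064 CPM in ISOGK mouse 4, and *Orm2* made up 4.46% to 16.3% of it in the 7 mice and 18.6% in ISOGK mouse 4.

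The promoters of *Orm2* and *Orm3* are shown because these neighbours differed in their excess in ISOGK mouse 4 while their upstream sequences are alike. They are given in the same way, at chr4:63362199-63362404 and chr4:63355908-63356113 (both plus strand), with the C/EBP match in capitals.
*Orm2*: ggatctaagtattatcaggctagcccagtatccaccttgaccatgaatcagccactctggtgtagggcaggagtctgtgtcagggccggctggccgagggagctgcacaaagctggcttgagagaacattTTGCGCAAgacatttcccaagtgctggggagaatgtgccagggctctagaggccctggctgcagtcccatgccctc
*Orm3*: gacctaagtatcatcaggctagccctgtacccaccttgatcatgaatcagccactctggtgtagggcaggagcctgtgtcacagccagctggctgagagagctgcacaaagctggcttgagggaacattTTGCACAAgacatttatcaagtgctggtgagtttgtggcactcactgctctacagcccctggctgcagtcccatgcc
The promoters of *Orm2* and *Orm3* were 85.9% identical over the 250 bases before the start, and the match began at positions -120 and -121. The letters of the match differ between these genes within the unspecified bases of the motif.

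*Hp* (GRCm38, chr8:109575128-109579172, minus strand) encodes haptoglobin, which binds free hemoglobin in plasma. It had 4216, 3801, 4218 and 3773 CPM in vehicle mice and 4851, 3759, 3955 and 11163 CPM in ISOGK mice. The vehicle mice were close to each other, with a coefficient of variation of 6.22%, ISOGK mice 2 and 3 lay within or just below their range, and ISOGK mouse 4 had 2.30 times the next highest library. The log2 fold change was 0.57 ± 0.33 (SE, adjusted p = 0.345) and 0.07 ± 0.11 without ISOGK mouse 4 (adjusted p = 0.788).

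*Lcn2* (chr2:32384633-32388252, minus strand) encodes lipocalin 2, which binds bacterial siderophores and so withholds iron, and is made by hepatocytes and stored in neutrophils. It had 72.4, 61.5, 37.8 and 39.7 CPM in vehicle mice and 103, 38.2, 55.9 and 505.7 CPM in ISOGK mice. ISOGK mouse 4 exceeded the next highest library, ISOGK mouse 1, by 4.91 times, and the groups overlapped. The log2 fold change was 1.73 ± 0.89 (SE, adjusted p = 0.292) and 0.32 ± 0.40 without ISOGK mouse 4 (adjusted p = 0.720). The 11 neutrophil markers summed to 6.02 to 11.5 CPM in vehicle mice, 22.1 to 36.8 CPM in ISOGK mice 1 to 3 and 9.69 CPM in ISOGK mouse 4 (two-sided exact permutation p = 0.0571). Of the 7 that could be tested, 2 (*S100a9* and *Ltf*) were called higher with ISOGK, against 4.11% of all tested genes. None of the 11 was highest in ISOGK mouse 4, the mouse with the highest *Lcn2*, while 3 of them, *S100a9* (4.35 CPM), *S100a8* (1.41 CPM) and *Retnlg* (1.10 CPM), were higher in it than in every vehicle mouse. Their part in the level of *Lcn2* was not tested.

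*Itih4* (chr14:30886476-30902353, plus strand) encodes a secreted protein of the inter-alpha-trypsin inhibitor family. It had 2432, 2522, 2273 and 2618 CPM in vehicle mice and 1953, 1986, 1978 and 4966 CPM in ISOGK mice. ISOGK mice 1 to 3 lay close together, with a coefficient of variation of 0.877%, and below every vehicle mouse, whereas ISOGK mouse 4 was 1.90 times the next highest library. The log2 fold change was 0.14 ± 0.30 (SE, adjusted p = 0.817), and scaling by library size alone gave -0.015. Without ISOGK mouse 4 it was -0.32 ± 0.09 (adjusted p = 0.0624, two-sided exact permutation p = 0.0286, the smallest that 3 mice against 4 allow). The mouse left out was chosen after the values were seen and had the highest *Itih4*. Both p-values and the separation of the remaining mice depend on that choice and are no independent test. Among the remaining 7 mice, 2 of the 10 genes did not overlap between groups, *Saa4* and *Itih4*, both lower with ISOGK, against 9.39% of tested genes that did not overlap in that direction and 19% in either direction. None of the 10 was called among these 7 mice, against 5.45% of all tested genes.

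**Figure D2:**
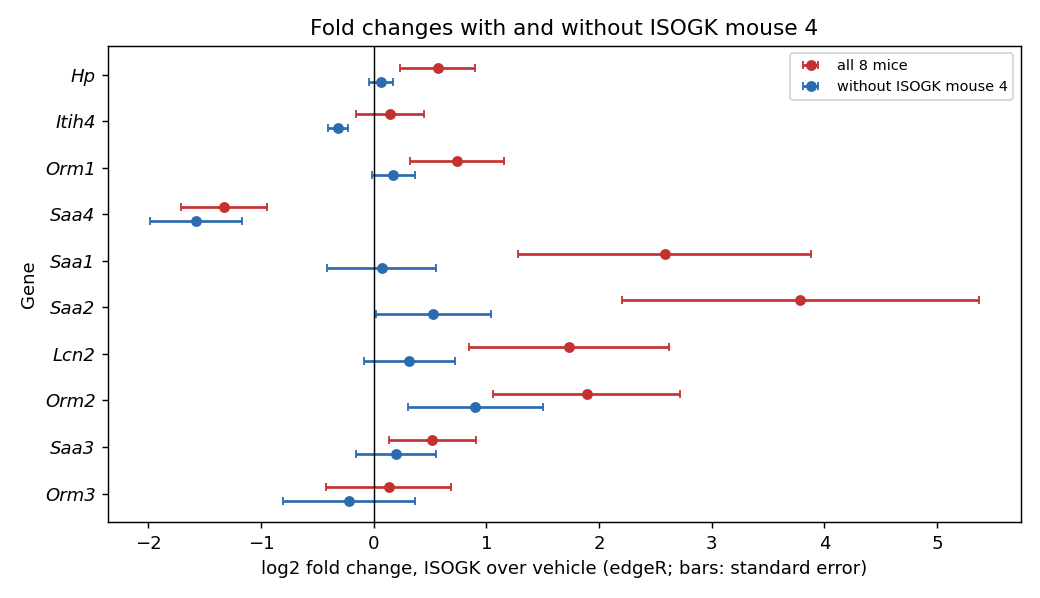
Log2 fold change (ISOGK over vehicle, edgeR) of the 10 genes with all 8 mice and without ISOGK mouse 4; bars are standard errors. *Saa1* moves from 2.58 to 0.07 and *Saa2* from 3.79 to 0.53, while *Saa4* stays below 0 at -1.33 and -1.58.

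Over the 10 genes the median log2 fold change was 0.65, beside 0.0018 over all tested genes, and 9 of the 10 were above 0. Without ISOGK mouse 4 the median was 0.12, beside -0.0097 over all tested genes, and 7 of the 10 were above 0. The spread of CPM within the ISOGK group exceeded that in the vehicle group for most of the 10. The median over all tested genes differed in the same direction. That median SD of log2 CPM was 0.16 in vehicle mice, 0.23 in ISOGK mice and 0.19 in ISOGK mice 1 to 3. Among the 10 genes the median coefficient of variation of CPM was 33.3% in vehicle mice and 66.4% in ISOGK mice, and 47.9% in ISOGK mice 1 to 3.

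In vehicle mice the coefficient of variation ran from 5.97% (*Itih4*) to 49.3% (*Orm3*), and the highest mouse was 1.12 (*Hp*) to 3.23 (*Orm2*) times the lowest. In the ISOGK group it ran from 41.4% (*Saa4*) to 179% (*Saa2*), and the highest mouse was 2.54 (*Itih4*) to 81.6 (*Saa2*) times the lowest. *Saa4* was the only gene of the 10 with a lower coefficient of variation under ISOGK (41.4%, against 43.3% in vehicle mice). By the SD of log2 CPM, 3 of the 10 lay above the 95th percentile of all tested genes in vehicle mice (*Saa1*, *Orm2* and *Orm3*) and 8 did in ISOGK mice. In ISOGK mice 1 to 3 the number was 5 (*Saa1*, *Saa2*, *Orm2*, *Orm3* and *Lcn2*), so these 5 were among the more variable genes also without ISOGK mouse 4. *Hp* and *Itih4*, at the 18.3 and 17.3 percentiles, were among the less variable genes in vehicle mice.

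Other positive acute-phase genes, 18 in a list of plasma proteins and response genes, were next compared. ISOGK mouse 4 was the highest library for 14 of the 18 (77.8%, against 23.3% of all tested genes) and exceeded every other library by more than 2 times for 6. These were *Apcs*, the serum amyloid P component (4.54 times), *Lrg1*, a leucine-rich glycoprotein (3.24), *Serpina3n*, a protease inhibitor (2.89), and the fibrinogen chains *Fgb* (2.29), *Fga* (2.22) and *Fgg* (2.19). Of the 28 genes beyond 2 times in ISOGK mouse 4, 13 had at least 100 CPM in it, a limit set after the values were seen. They were 6 of the 10 genes described here, those 6 of the list, and *Dnajb9*, a chaperone cofactor of the endoplasmic reticulum (113 CPM, 2.03 times).

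**Figure D3:**
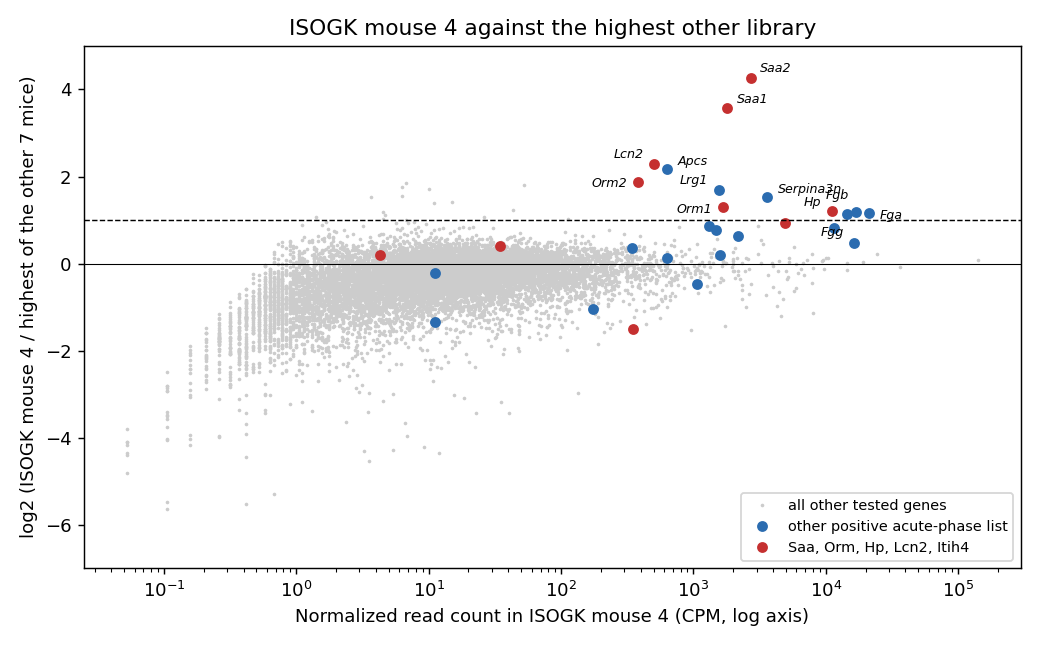
Log2 ratio of ISOGK mouse 4 to the highest of the other 7 mice against its level in ISOGK mouse 4 (CPM, log axis) for all tested genes; each point is a gene and the dashed line is a ratio of 2. The named points are the 6 of the 10 genes and 6 of the list of 18 above that line, with *Saa2* (19.2 times) and *Saa1* (11.9 times) highest of all genes.

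Between the groups, 0 of the 18 were called higher and 1 lower, against 4.11% and 3.44% of all tested genes, and their median log2 fold change was 0.30, or -0.06 without ISOGK mouse 4. The gene called lower was *Steap4*, a metalloreductase induced by inflammatory cytokines, with 310 ± 46.3 CPM in vehicle and 155 ± 55.9 CPM in ISOGK mice (SD, n = 4 each) and a log2 fold change of -0.9996 ± 0.26 (SE, adjusted p = 0.0474). Its call was lost in 9 of 16 alternative settings, the fit without ISOGK mouse 4 among them (-1.06, adjusted p = 0.0990). *Itih3*, which like *Itih4* belongs to the inter-alpha-trypsin inhibitor family, had a log2 fold change of 0.49 ± 0.17 (adjusted p = 0.0940) with no overlap between groups, and 0.30 without ISOGK mouse 4 (adjusted p = 0.169). *Fgl1*, a fibrinogen-like protein of hepatocytes, had 0.56 ± 0.27 (adjusted p = 0.246), and 0.22 without ISOGK mouse 4 (adjusted p = 0.470). *Crp*, which mice induce only weakly, was 1.10 times the next highest library in ISOGK mouse 4 after TMM scaling. Its counts were 12070 of 21626399 reads there, and 11499 of 19605286 in vehicle mouse 1.

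Of 9 negative acute-phase genes, 1 was called higher and 1 lower, against 4.11% and 3.44% of all tested genes. ISOGK mouse 4 was the highest library for 5 of the 9 (*Alb*, *Ttr*, *Trf*, *Ahsg* and *Fetub*; 55.6%, against 23.3% of all tested genes), and for none by more than 2 times. For *Alb*, *Ttr*, *Trf* and *Ahsg* that rank depended on TMM scaling. Vehicle mouse 4 had more counts of each from fewer total reads (21392947, against 21626399 in ISOGK mouse 4). *Serpina6*, which encodes the corticosteroid-binding globulin, fell from 158 ± 40.7 to 50.9 ± 3.12 CPM (SD, n = 4 each), with a log2 fold change of -1.64 ± 0.17 (SE, adjusted p = 0.000689) that passed in all 16 alternative settings. All ISOGK mice were below all vehicle mice, ISOGK mouse 4 included. *Rbp4*, the retinol carrier, rose from 1716 ± 91.6 to 2236 ± 194 CPM (log2 fold change 0.38 ± 0.10, adjusted p = 0.0381), a call held in 8 of 16 alternative settings. *Fetub*, a cystatin-like protease inhibitor, had 0.18 ± 0.10 (adjusted p = 0.321), and 0.09 without ISOGK mouse 4 (adjusted p = 0.597). The median log2 fold change of the 9 was 0.02. *Alb*, the albumin gene, was 1.06 times the next highest library in ISOGK mouse 4 after TMM scaling. It had 2696440 counts there, against 2891510 in the smaller library of vehicle mouse 4.

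**Figure D4:**
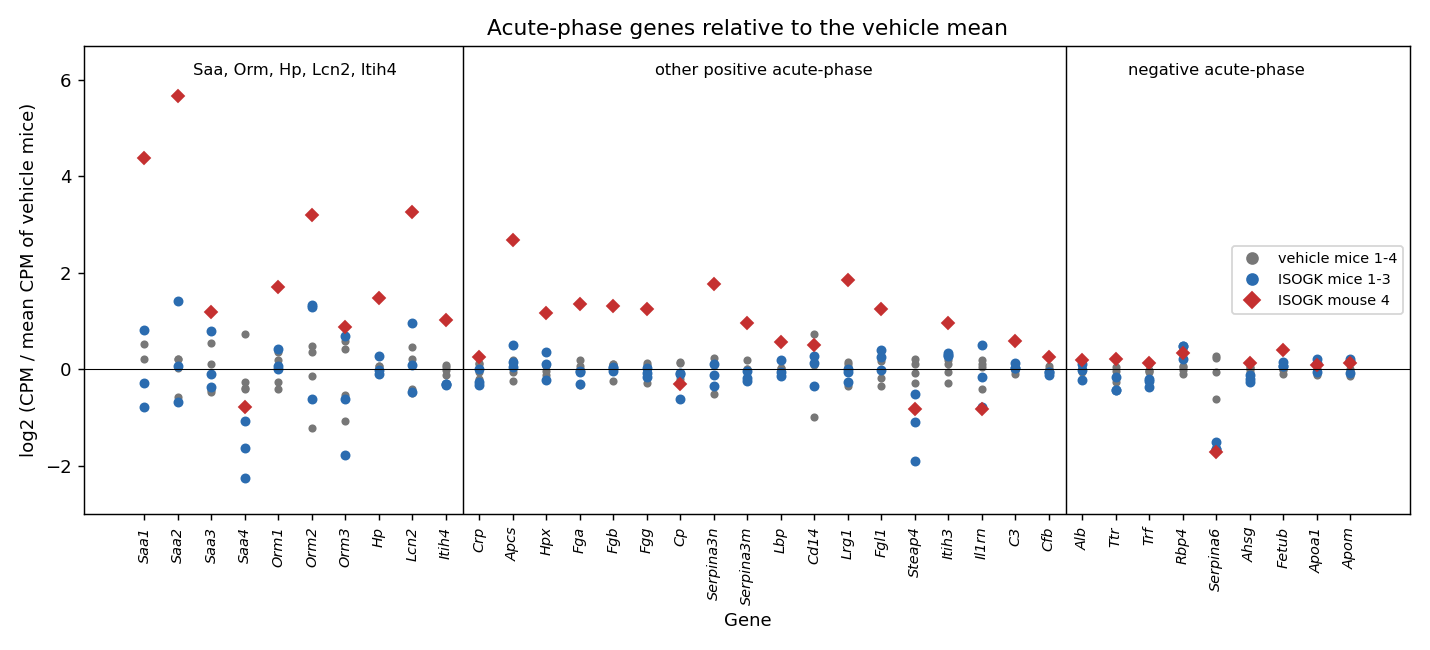
Log2 ratio of each library's CPM to the mean of the vehicle mice for the 10 genes, the 18 other positive and the 9 negative acute-phase genes; each point is 1 library. The diamonds of ISOGK mouse 4 lie above the other libraries for 9 of the 10 and 14 of the 18, whereas *Saa4*, *Steap4* and *Serpina6* lie lower in all 4 ISOGK mice than in any vehicle mouse.

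The cytokine signalling list holds 23 genes of the response, among them cytokines, receptors, kinases, transcription factors and inhibitors. Of these, 21 were tested, since *Il6* and *Tnf* were too low or not listed, and 0 were called higher and 2 lower, against 4.11% and 3.44% of all tested genes. *Nr3c1*, the glucocorticoid receptor, fell by 0.41 on the log2 scale (SE 0.11, adjusted p = 0.0376), and *Il1rap*, the accessory chain of the interleukin-1 receptor, fell by 0.34 (SE 0.09, adjusted p = 0.0460). The groups did not overlap for either gene. These calls were lost in 7 and 9 of the 16 alternative settings, among them the fit without ISOGK mouse 4, in which the log2 fold changes were -0.42 (adjusted p = 0.0603) and -0.32 (adjusted p = 0.0843). *Cebpa*, a hepatocyte transcription factor, had -0.49 ± 0.15 (adjusted p = 0.0679). ISOGK mouse 4 was the highest library for 4 of the 21 genes (19.0%, against 23.3% of all tested genes), and for none by more than 2 times.

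Among 12 receptors and binding partners of these proteins, 11 were tested (*Slc22a17*, a receptor of lipocalin 2, was not) and 1 was called higher and 0 lower, against 4.11% and 3.44% of all tested genes. *Lrp2*, an endocytic receptor that takes up lipocalin 2 among many ligands, rose from 0.233 ± 0.114 to 1.49 ± 0.572 CPM (SD, n = 4 each; log2 fold change 2.63 ± 0.42, adjusted p = 0.00389), and passed in all 15 alternative settings that could test it. It is a gene of very low level in liver. *Scarb1*, the receptor for high-density lipoprotein that also binds serum amyloid A, had -0.35 ± 0.11 (adjusted p = 0.0699) with no overlap between groups, and *Tlr4* had -0.54 ± 0.19 (adjusted p = 0.112). *Cd163*, the haptoglobin-hemoglobin receptor of macrophages, had 1.67 ± 0.846 CPM in vehicle and 3.03 ± 2.19 CPM in ISOGK mice (adjusted p = 0.498).

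Among the genes most like the families in their pattern within groups were *Vps29* (Pearson r = 0.991), *Tram1* (0.985), *Hspa14* (0.978), *Chil1* (0.977) and *Crp* (0.972). The measure was the correlation over the 8 libraries of log2 CPM, centred on each group, with the mean of the scaled values of *Saa1*, *Saa2*, *Saa3*, *Orm1*, *Orm2* and *Orm3*. Since the points share ISOGK mouse 4, the same correlations over the other 7 libraries were 0.953, 0.957, 0.925, 0.961 and 0.983. The genes were picked for high correlation over all 8 libraries, these 7 among them, so the values over the 7 are no independent check. *Vps29* lay at 20.9 to 26.5 CPM in the 7 mice and 34.1 CPM in ISOGK mouse 4. *Chil1*, a chitinase-like protein, had 0.670 to 2.94 CPM in the 7 mice and 5.66 CPM in ISOGK mouse 4.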

How the data were processed

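RNA-seq was performed on livers of 4 vehicle-treated and 4 ISOGK-treated mice, grouped by their deposited labels, with 1 library per mouse. The authors aligned single-end reads with HISAT2 to the mouse genome (mm10, per the labels) and obtained the count of each gene with StringTie. The use of strand and the annotation release are not given in the sources used here. The deposited values are whole-number counts for 16540 gene symbols, without normalization, and columns named DMSO were taken as vehicle.

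Counts were filtered with filterByExpr (minimum count 10, minimum total 15), scaled by TMM and tested with the robust quasi-likelihood test of edgeR 4.0.16 in R 4.3.3, with Benjamini-Hochberg adjustment over 12307 genes. For single genes, log2 CPM (prior count 2) was also compared by an exact permutation test, two-sided. Alternatives were DESeq2 1.42.0, limma-voom (limma 3.58.1), other scalings and filters, edgeR's test with its robust setting off, a block for the replicate number, and each mouse left out in turn. The scripts were tested on simulated data. Counts of reads without molecular identifiers give precision for counting error only, and the labels do not say that the mice were housed or processed apart.

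The 10 genes, the lists and the rules were chosen with earlier results of these data known. The named genes are the 10, up to 3 of each of the 4 lists by smallest adjusted p, and the 6 genes most correlated with the families, of which 1 is not reported here; others, named because ISOGK mouse 4 or another value singled them out, were chosen after their values were seen. Gene positions and transcripts are from GENCODE M21 (GRCm38), in which all 10 genes were found by symbol, and none overlaps another gene there. Promoters are from RefSeq (GRCm38.p6), in which 8 of the 10 had an entry (*Hp* and *Orm1* did not).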

Additional observations from a re-analysis of the deposited data

Results flagged for a closer look

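In groups of 4 libraries, a value was examined where the gap of the highest or lowest library to its nearest neighbour, divided by the range of the group, exceeded Dixon's 95% critical value for 4 values. Over 56 groups of values, from the 10 genes and the genes named by rule, 8 exceeded it, and 7 of the 8 were values of ISOGK mouse 4. At 1 in 20 the number would be 2.8, but that figure is no valid reference here. It assumes normal values of genes chosen without sight of the data. These genes were chosen with earlier results known, some of them for their correlation with the families. The ratio was 0.942 for *Saa1* (1808 CPM, the other ISOGK mice 50.2 to 152), 0.960 for *Saa2* (2733 CPM, others 33.5 to 142) and 0.861 for *Lcn2* (505.7 CPM, others 38.2 to 103). It was 0.851 for *Orm1* (1675 CPM, others 510 to 684) and 0.852 for *Hp* (11163 CPM, others 3759 to 4851). It was 0.989 for *Itih4* (4966 CPM, others 1953 to 1986) and 0.930 for *Itih3* (2188 CPM, others 1348 to 1408). The remaining value was *Saa4* in vehicle mouse 1, with a ratio of 0.904 (979.5 CPM, the other vehicle mice 447 to 498). The values of ISOGK mouse 4 come from 1 library and are not independent of each other.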

How the results depend on the processing

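Of 160 log2 fold changes of the 10 genes over 16 alternative settings, 146 kept their direction and their side of the threshold, and 2 (*Saa1* and *Saa2* with DESeq2) kept their direction with no p-value given. *Orm3* changed sign with library size alone (-0.0090), limma-voom (-0.031), and without vehicle mouse 3 (-0.011), vehicle mouse 4 (-0.10), ISOGK mouse 1 (-0.11) or ISOGK mouse 4 (-0.22). *Itih4* changed sign with library size alone (-0.015) and without ISOGK mouse 4 (-0.32). With a mouse left out, *Orm3* ranged from -0.22 to 0.45 and *Itih4* from -0.32 to 0.27. The cause was not tested. Of the 10 genes, 1 (*Saa4*) was called with library size alone, DESeq2, edgeR without the robust option and the replicate block, and 0 to 0 with a mouse left out. Leaving out a mouse gave a median log2 fold change of the 10 of 0.12 (without ISOGK mouse 4) to 0.83, and 379 (without vehicle mouse 2) to 1235 calls over all genes, beside 929 with all mice and 1435 with DESeq2. The median coefficient of variation of CPM ranged from 26.5% to 36.4% in the vehicle group and from 47.9% to 80.3% in the ISOGK group when a mouse was left out.

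Library size alone shifted the median log2 fold change of all genes by -0.132 and the share of calls that were higher from 54.5% to 24.6%. Calls over all genes were 506 higher and 423 lower in the main fit, 262 and 804 with library size alone, and 765 and 670 with DESeq2. They were 456 and 408 with limma-voom, 467 and 412 with no filter, and 411 and 416 with the replicate block. At least 10 counts in every library gave 488 and 420. The list counts that follow stand beside these totals. Calls among the other positive acute-phase genes (1 with all mice) were 2 with DESeq2, 0 with limma-voom, no filter or the replicate block, and 0 to 1 with a mouse left out. Among the negative acute-phase genes (2) they were 1 with library size alone or the replicate block, and 1 to 2 with a mouse left out. In the cytokine list (2) they were 4 with library size alone, 5 with DESeq2, 1 with no filter or the replicate block, and 0 to 2 with a mouse left out. Among receptors and partners (1) they were 2 with library size alone or DESeq2, and 0 with at least 10 counts in every library, a filter that removed *Lrp2*. The replicate numbers were not used as pairs, since the deviations of same-numbered mice correlated at -0.014 to 0.085, and the block gave 827 calls over all genes. The rise in ISOGK mouse 4 was seen in 1 mouse and has no replicate here. *Orm3*, at 13 to 89 counts per library, is limited by depth.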

Other observations

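The values below were chosen after they were seen and belong to no comparison between groups. Besides the acute-phase genes, the 28 genes for which ISOGK mouse 4 exceeded every other library by more than 2 times included *Dnajc12*, a co-chaperone (52.5 CPM, 3.5 times the next highest), and *Slc13a5*, the citrate transporter of hepatocytes (6.34 CPM, 2.93 times). They also included *Cxcl14*, a chemokine gene (6.29 CPM, 3.37 times), and *Ddit3* (14.9 CPM, 2.67 times), *Sdf2l1* (43.4 CPM, 2.33 times) and *Dnajb9* (113 CPM, 2.03 times), genes known from the response to unfolded proteins in the endoplasmic reticulum. Other genes of that response were mixed in ISOGK mouse 4. *Herpud1* (1.78 times the highest other library), *Pdia4* (1.55), *Hspa5* (1.49), *Manf* (1.43) and *Hyou1* (1.29) lay above all others. *Pdia6* (0.873), *Hsp90b1* (0.851), *Atf6* (0.765), *Xbp1* (0.711), *Dnajc3* (0.681) and *Ern1* (0.615) did not. These genes were picked without a rule and do not give the balance of that response. *Vsig4*, a complement receptor of Kupffer cells, had 102 counts in ISOGK mouse 4 and 1422 to 2436 in the other 7 libraries. *Timd4*, another marker of resident macrophages, had 67 counts in ISOGK mouse 4 and 169 to 740 in the others. *Clec4f*, a Kupffer cell lectin, had 3112 counts there and 1454 to 5943 in the others. Only vehicle mouse 1 (72.9 CPM) lay below ISOGK mouse 4 (163 CPM) for *Clec4f*. In CPM the macrophage markers *Adgre1*, *Marco* and *Csf1r* were also lowest in ISOGK mouse 4, while *Cd5l*, *Cd68*, *Lyz2*, *Itgam* and *Ccr2* were not.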
